A study of Mus musculus with 6 samples.

Results

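Notch receptors, their ligands, the DNA-binding factor they act through and the genes they switch on were examined in DR4 mouse embryonic fibroblasts. The 10 genes were Notch1, Notch2, Notch3 and Notch4 (receptors), Jag1, Jag2 and Dll1 (ligands), Rbpj (the factor) and Hes1 and Hey1 (targets). They were chosen by gene symbol and make up 10 of 18193 genes with a single symbol on the arrays. They were covered by 20 probe sets, groups of short oligonucleotides that together read 1 transcript, of which 17 were on the Affymetrix array MOE430A and 3 on MOE430B. No probe set that named a member also named another gene.

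All samples were DR4 fibroblasts of day 15 embryos, which serve as the feeder layer on which mouse embryonic stem cells grow and were profiled as a control for stem cell lines not analysed here. They were cultured on 0.1% gelatin in D-MEM with 15% serum and LIF, at 37 C and 5% CO2. The labels name no treatment, and do not say whether division had been stopped or whether the replicates were separate cultures, and p-values therefore reflect the spread of these samples alone, part or all of which may be technical. DR4 mice are known as a strain with several drug resistance genes and no working Hprt, which every sample here shares. Each of 3 replicates was hybridized to both array types, which makes 6 samples. The labels record 12x10e6 cells and an RNA concentration of 2.4 ug/ul for replicate 1, and 3x10e6 cells and 3.0 ug/ul for both other replicates.

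Notch is a receptor that a neighbouring cell switches on. A Jagged or Delta-like ligand on that neighbour pulls on it, an ADAM protease and then gamma-secretase cut it, and the freed intracellular domain enters the nucleus. There it joins Rbpj and a Mastermind co-activator at genes such as Hes1 and Hey1, which encode transcriptional repressors. In the embryo the pathway is known for keeping progenitors from differentiating, and Notch3 and Notch4 are best known from vascular smooth muscle and endothelium, respectively.

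Values are MAS5 signals, linear intensities scaled by the authors to a common mean on every array. Each array's median signal served as a floor. It lay at 689, 685 and 734 on the MOE430A arrays of replicates 1, 2 and 3, and at 849, 917 and 907 on the MOE430B arrays. A gene counted as above the floor if 1 of its probe sets was above it on all 3 arrays of a type. A median floor does not mark which genes are expressed, and probe sets differ in brightness. Neither genes nor the 2 array types are therefore ranked against each other as a result. Mean signal, from either array type, served only to choose which genes of a list to name. As a check of the label, 8 of 8 fibroblast markers were above the floor. So were 5 of 8 markers of pericytes and smooth muscle, 2 of 5 of macrophages (Lyz2 at 2030 ± 580 and Csf1r at 1860 ± 144, SD, n = 3), 2 of 6 of epithelium, 2 of 7 of skeletal muscle, 1 of 8 of endothelium, 1 of 6 of neural progenitors and 1 of 6 of pluripotent cells. In RNA of a whole culture, fewer cells of a type and less RNA per cell cannot be told apart.

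DR4 cells had signals above the floor for receptors, ligands, Rbpj and a target gene. Of the 10 genes, 7 were above it: Notch1, Notch2, Notch3, Jag1, Dll1, Hes1 and Rbpj. Notch4, Jag2 and Hey1 were not. The share among all 18193 genes was 54.7%, so a share of 7 in 10 is near the background. By probe set, 10 of 20 were above the floor on all 3 arrays, 3 on 1 or 2 arrays and 7 on none. Those above on all 3 arrays were 8 of 17 on MOE430A, beside 42.4% of all probe sets there. On MOE430B they were 2 of 3, beside 37.2%. With the 75th percentile of each array as the floor, the count fell to 2 of 10, Notch3 and Rbpj, beside 30.4% of all genes.

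**Figure D1:**
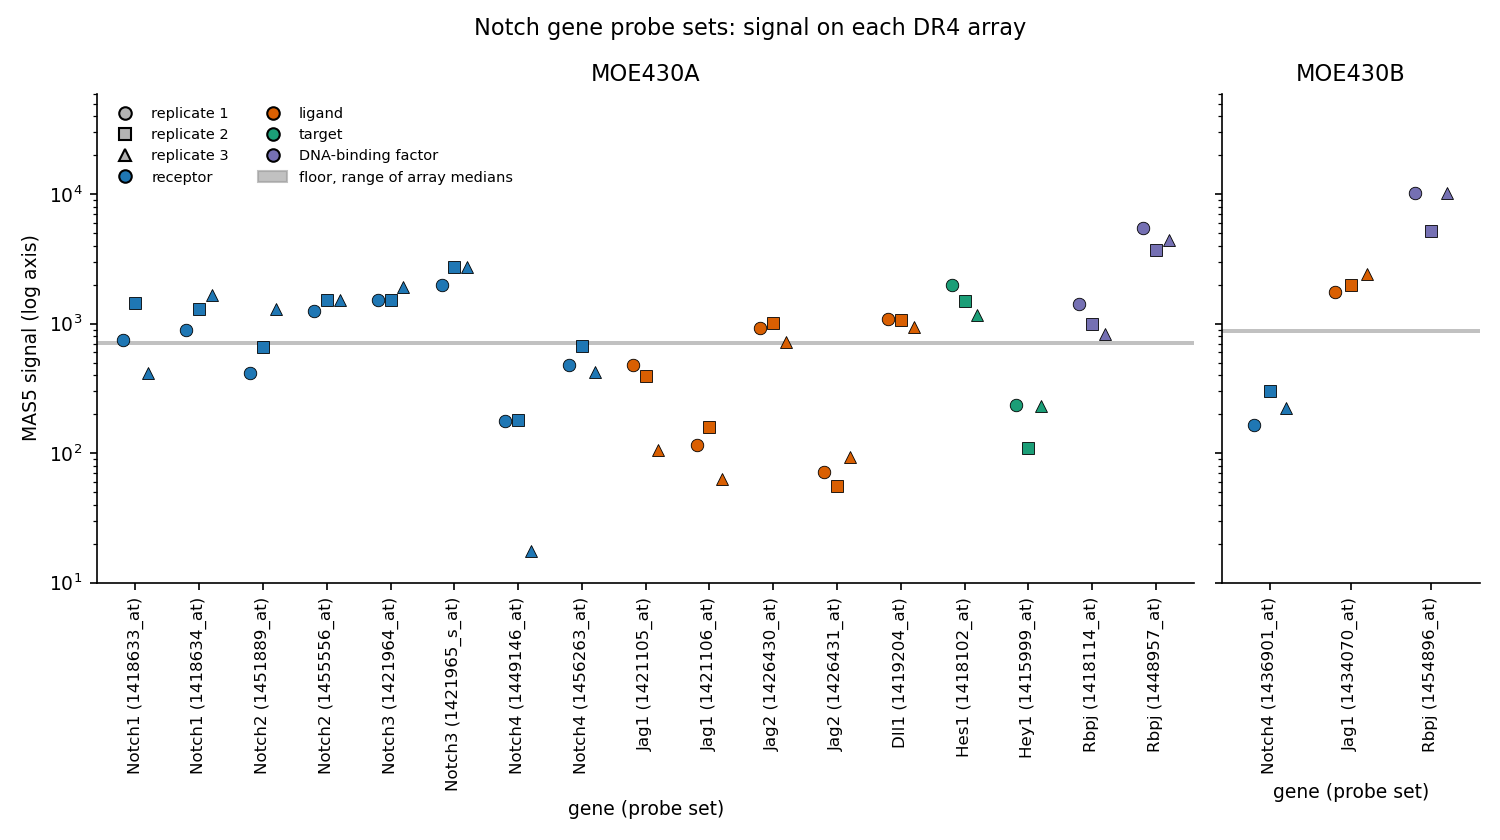
MAS5 signal (log axis) of the 20 probe sets on each DR4 array, by array type. Each point is 1 array, the shape gives the replicate, the colour the role, and the grey band spans the medians of the 3 arrays, which served as the floor. All 3 Rbpj probe sets sit above the band on every array, and all 3 Notch4 probe sets sit below it. The array types were scaled separately, so heights are not comparable between the panels.

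Among the receptors, Notch3 was above the floor with both probe sets. Notch3 is the receptor that vascular smooth muscle and pericytes depend on. Its probe set 1421965_s_at had signals of 1998, 2744 and 2734 in replicates 1, 2 and 3, and 1421964_at had 1513, 1510.2 and 1905. Every one of these values was at least 2.20 times the floor of its array, and the 2 probe sets lay at the 81.9th and 73.3rd percentile of their arrays on average. The suffix _s_at marks a probe set whose oligonucleotides match more than 1 transcript. Of the pericyte and smooth muscle markers, some of which contractile fibroblasts share, 5 of 8 were above the floor, beside 54.7% of all genes. Among them was Pdgfrb at 5440 ± 1834 (SD, n = 3), while Myh11, Rgs5 and Mcam were not above it.

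Notch1 and Notch2, the broadly expressed receptors, were each above the floor with 1 of 2 probe sets. Notch2 had signals of 1254, 1518 and 1521 on 1455556_at, a coefficient of variation of 10.7%. On its other probe set, 1451889_at, it had 413, 654 and 1294, with replicate 3 alone above the floor. Notch1 had 887, 1289 and 1667 on 1418634_at, lowest in replicate 1. On 1418633_at it had 751, 1446 and 414, lowest in replicate 3 and highest in replicate 2. Both Notch1 probe sets were lower in replicate 1 than in replicate 2, and they differed on whether replicate 3 was the highest or the lowest.

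Notch4, the receptor best known from endothelium, was under the floor on every array with all 3 probe sets. Its signals were 476, 676 and 423 on 1456263_at, 177, 180 and 17.5 on 1449146_at, and 165, 303 and 225 on the MOE430B probe set 1436901_at. On 1456263_at replicate 2 was close to its floor of 685. The endothelial markers Pecam1 (141 ± 40.3), Cdh5 (420 ± 90.9), Tie1 (21.4 ± 4.58) and Tek (214 ± 169) were also under the floor on every array, and Kdr (1407 ± 199.9) was above it. The summed signal of the 8 endothelial markers was 2757, 2831 and 3423 in the 3 replicates.

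Of the ligands, Dll1 and Jag1 were above the floor and Jag2 was not. Dll1, the Delta-like ligand of the early mesoderm and nervous system, had signals of 1086, 1071 and 945, with a coefficient of variation of 7.50%, the lowest of the 20 probe sets. Jag1, the ligand known from vessels, bile ducts and the inner ear, counted only through MOE430B, where 1434070_at had 1768, 2002 and 2438. All 3 values were at least 2.08-fold the floor of their array, but in replicates 1 and 2 they were below the brightest of the tryptophan controls, bacterial sequences without a mouse target, which lay at 1989, 2348 and 2229. On MOE430A the 2 Jag1 probe sets were under the floor on every array, with 479, 394 and 106 on 1421105_at and 116, 158 and 62.9 on 1421106_at.

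Jag2, a ligand known from limb and thymus development, lay across the floor. Its probe set 1426430_at had 934, 1007 and 716, above the floor in replicates 1 and 2 and under it in replicate 3. Without replicate 3 Jag2 counted as above the floor, which raised the count from 7 to 8 of 10. Its second probe set, 1426431_at, had 71.1, 56.0 and 92.6, under the floor on every array.

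The factor Rbpj was the member with the most probe sets above the floor, 3 of 3. Rbpj holds Notch targets silent until the intracellular domain arrives. It had signals of 5514, 3677 and 4446 on 1448957_at and 1419, 997 and 829 on 1418114_at, and on MOE430B it had 10302, 5173 and 10234 on 1454896_at. Replicate 2 was lowest on 1448957_at and 1454896_at and replicate 3 on 1418114_at. The MOE430B probe set was at the 96.4th percentile of its arrays on average and 1448957_at at the 90.5th.

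The 2 targets lay on opposite sides of the floor. Hes1, the repressor that Notch switches on in many progenitors, had 1981, 1509 and 1175, above the floor on all 3 arrays. Hey1, a related repressor known from blood vessels and heart, had 236, 109 and 233, under the floor on all 3. Each gene had 1 probe set on MOE430A and none on MOE430B, so neither could be checked against a second one.

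The promoter sequence was read for the receptors that lay on either side of the floor. Promoter windows of RefSeq (build GRCm38.p6) were held for 8 of the 10 genes, in 10 windows, and not for Hes1 and Hey1. The 250 bases before the start of Notch4 (chr17:34564045-34564294, plus strand) and of Notch2 (chr3:98013288-98013537, plus strand) are shown 5′ to 3′, with each CpG in capitals, because they differ most in CpG content among the receptors.
Notch4: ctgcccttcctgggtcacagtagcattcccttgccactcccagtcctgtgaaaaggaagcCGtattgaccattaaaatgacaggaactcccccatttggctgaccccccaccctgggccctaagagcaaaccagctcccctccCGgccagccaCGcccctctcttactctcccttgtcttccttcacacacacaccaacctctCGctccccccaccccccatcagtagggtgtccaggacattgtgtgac
Notch2: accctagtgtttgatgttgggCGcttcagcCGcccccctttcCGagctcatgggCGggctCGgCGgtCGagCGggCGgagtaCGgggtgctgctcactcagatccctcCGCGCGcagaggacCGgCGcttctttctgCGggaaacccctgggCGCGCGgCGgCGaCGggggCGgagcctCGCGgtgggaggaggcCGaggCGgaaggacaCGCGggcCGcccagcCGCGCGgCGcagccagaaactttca
Notch4 had 4 CpGs and Notch2 had 34, against a median of 6 over 32851 RefSeq windows. Windows with no more CpGs than these made up 44.4% of all windows for Notch4 and 97.0% for Notch2. The other receptors above the floor, Notch1 and Notch3, had 16 and 17 CpGs. CpG content did not follow the floor in all members, since Jag2, under the floor in replicate 3, had the most, 54. The letters TTCCCAC, the core that Rbpj binds, or their reverse complement GTGGGAA were in 0 of the 10 member windows and in 5.42% of all windows of the same length, which says only that these letters are not in these windows.

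The rest of the pathway was read from lists by role. Of the other pathway genes, 30 of 47 measured were above the floor (63.8%), beside 54.7% of all genes. The proteases and gamma-secretase subunits that release the intracellular domain were above it in 7 of 8 cases. Among them were the gamma-secretase subunits Psenen (8886 ± 1413, SD, n = 3), Aph1a (3641 ± 442) and, on MOE430B, Aph1b (3335 ± 759), and the ADAM protease Adam10 (3402 ± 87.5). Psen2, a catalytic subunit, was above the floor on 2 of 3 arrays. The nuclear co-factors were above it in 6 of 8 cases, among them the acetyltransferases Ep300 (4931 ± 2135 on MOE430B) and Kat2b (1209.7 ± 166), the Rbpj-binding Snw1 (2469 ± 78.7) and the Mastermind co-activator Maml1 (1540.1 ± 214).

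Genes of trafficking and turnover were above the floor in 9 of 12 cases. They included the Deltex-family ubiquitin ligases Dtx4 (3445 ± 597 on MOE430B) and Dtx3 (1939 ± 136), the endocytic adaptor Epn1 (2571 ± 358) and Numbl (3098 ± 642), a relative of the Notch inhibitor Numb. Of the enzymes that put sugars on the receptor, 3 of 5 were above it: Poglut1 (2420 ± 573), Rfng (1879 ± 291) and Pofut1 (1376 ± 133). The Fringe genes Lfng and Mfng were not. Of 9 further target genes 3 were, beside 54.7% of all genes: Nrarp (1110.2 ± 225), Dtx1 (1018 ± 218) and Hes6 (1008 ± 66.2). Hes2, Hes3, Hes5, Hes7, Hey2 and Heyl were not. The second probe sets of Nrarp and Dtx1 were under the floor on every array, and that of Hes6 was above it on 2 of 3. With probe sets marked unique alone, 1 of the 9 target genes was above the floor. Of 5 further ligands and ligand-like proteins, Dlk1 (24699 ± 7524), a Delta-like protein expressed from the paternal copy, and Dlk2 (1315 ± 891) were above it, and Dll3, Dll4 and Dner were not. Probe sets marked unique alone put 0 of these 5 above the floor. The second probe set of Dlk1, on MOE430B, was above it on 1 of 3 arrays (285, 320 and 2106), and that of Dlk2 on 2 of 3.

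**Figure D2:**
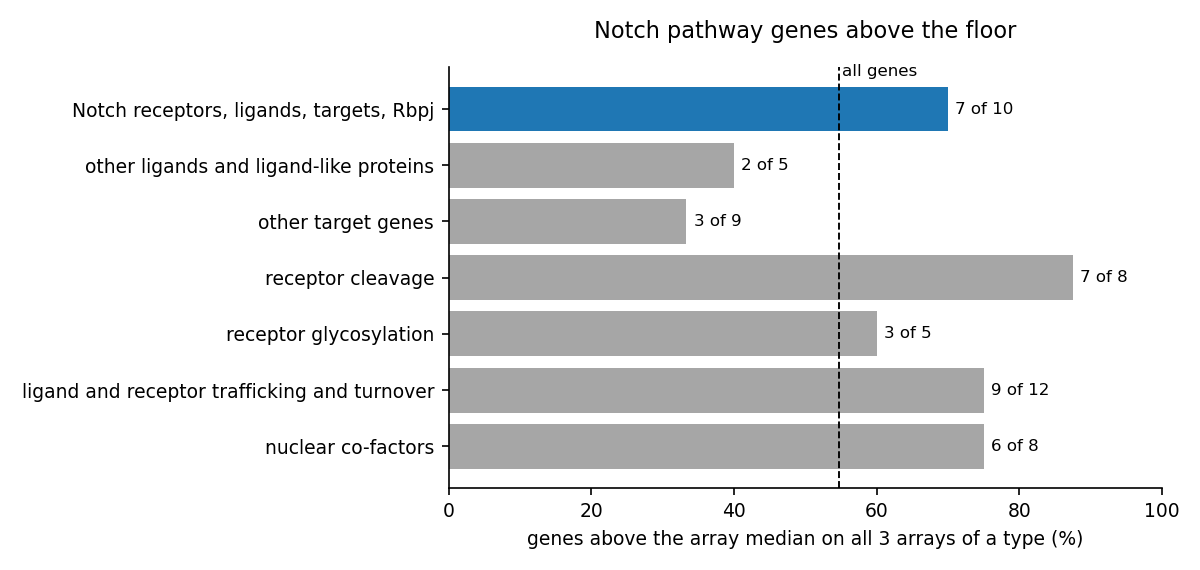
Share of measured genes above the floor in each Notch pathway list (horizontal axis, %). The blue bar stands for the 10 receptors, ligands, targets and Rbpj, the grey bars for the other lists, the numbers for genes above the floor of genes measured, and the dashed line for all 18193 genes (54.7%). Receptor cleavage has the longest bar, with 7 of 8, and the further target genes the shortest, with 3 of 9.

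The spread between the replicates sets the error of these values. Over the 8 member probe sets above the floor on MOE430A, the median SD of log2(signal + 16) was 0.28, beside 0.24 over all 9600 probe sets above it. Dll1 (0.11) and Notch2 on 1455556_at (0.16) varied less than most, at the 13.8th and 27.6th percentile of those SDs. Notch1 on 1418634_at (0.45), Rbpj on 1418114_at (0.39) and Hes1 (0.37) varied more, at the 87.7th, 80.3rd and 78.1st. On MOE430B the SD of Rbpj was 0.57 and that of Jag1 0.23, beside a median of 0.28 over 8384 probe sets.

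**Figure D3:**
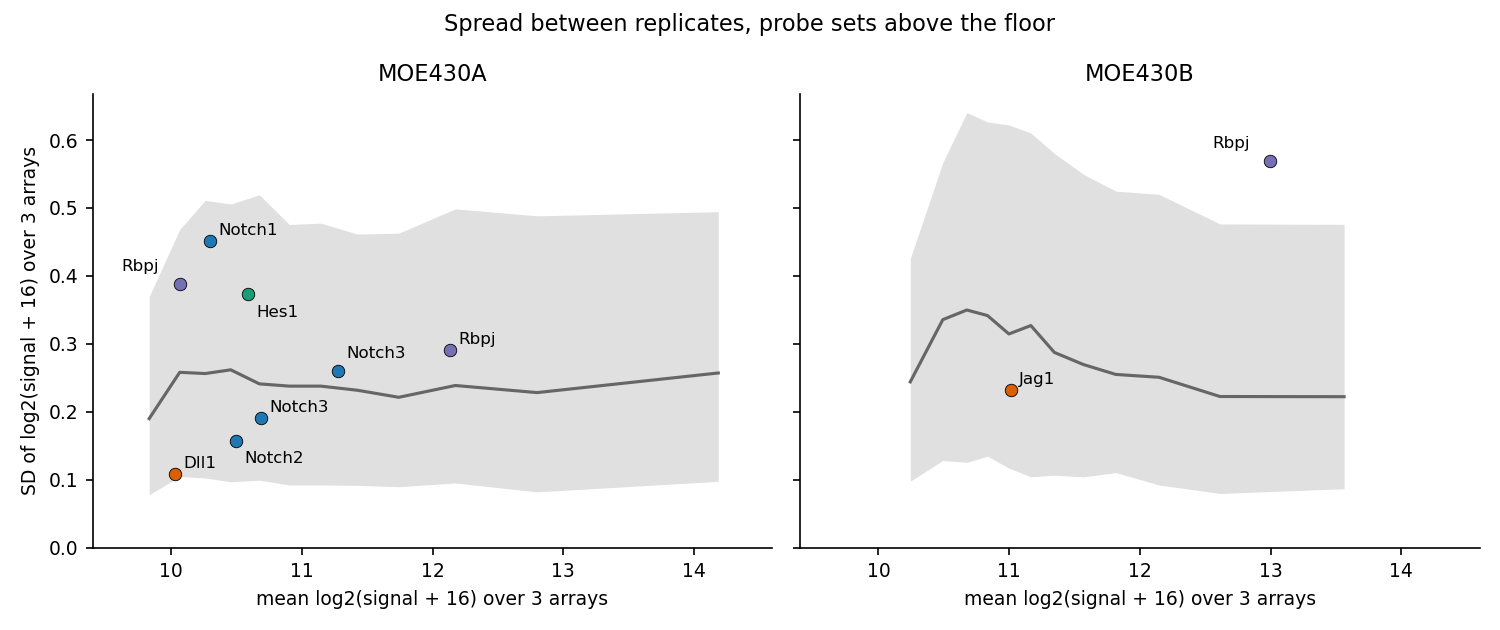
SD of log2(signal + 16) over 3 arrays (vertical axis) against its mean (horizontal axis), for member probe sets above the floor. Points are member probe sets coloured by role, the grey line is the median and the band the 10th to 90th percentile of all probe sets above the floor, in 12 bins of equal size. Rbpj on MOE430B (0.57) lies above the band and Dll1 (0.11) near its lower edge on MOE430A.

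Replicate 1 was set against replicates 2 and 3, the 1 difference that the labels record among arrays of a type. None of the members passed limma's test. On MOE430A 0 of 11 member probe sets tested were called at an adjusted p of 0.05, beside 0.705% of 11066 probe sets tested. At an unadjusted p under 0.05 the count was 1 of 11, beside 8.13%. On MOE430B 0 of 2 were called, beside 0% of 10594, with 0 of 2 members and 7.24% of all at an unadjusted p under 0.05. Replicate 1 is a single array in this test and is assumed to vary like the others.

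The intervals show how much the arrays could have missed if each probe set varied about as limma fits it. That fit draws each variance towards a value shared by all probe sets tested. The shared value weighed 25.6 prior degrees of freedom on MOE430A and 3.49 on MOE430B, against 1 residual. On MOE430A the intervals therefore reflect the shared spread more than that of each probe set, with standard errors of 0.367 for Dll1 and 0.370 for Hes1. Notch2 on 1455556_at had a log2 difference, replicate 1 minus the others, of -0.27 (95% interval -1.02 to 0.48, limma adjusted p = 0.951). On 1451889_at the fitted value was -1.13 (-1.95 to -0.31, limma adjusted p = 0.296), but there replicates 1 and 2 were both under the floor, so its size rests on signals under the floor. Set against the floor of replicate 1, replicates 2 and 3 were 1.33-fold higher on average, and replicate 3 alone was 1.86-fold higher. Replicate 2 alone was under that floor (0.95-fold), so no least difference can be given. Notch1 on 1418634_at had -0.71 (-1.47 to 0.05, limma adjusted p = 0.651) and on 1418633_at -0.05 (-1.01 to 0.92). Notch3 had -0.45 (-1.20 to 0.30) and -0.16 (-0.92 to 0.60).

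Rbpj and Hes1 had differences of the other sign, with intervals that included 0. For Rbpj the 3 log2 differences were 0.63 (-0.12 to 1.39) and 0.45 (-0.31 to 1.20) on MOE430A and 0.50 (-0.94 to 1.94) on MOE430B. For Hes1 it was 0.57 (-0.19 to 1.33, limma adjusted p = 0.782). The ligands were nearer to 0 or had wide intervals, with 0.11 (-0.64 to 0.86) for Dll1, 0.13 (-0.64 to 0.90) for Jag2 and -0.32 (-1.33 to 0.69) for Jag1 on MOE430B. Of these values, those of the 6 receptor probe sets, which stand for 3 genes, were below 0. Those of the 4 probe sets of Hes1 and Rbpj, which stand for 2 genes, were above it. That of Notch1 on 1418633_at was 0.0052 under quantile normalization. This split was not planned, and probe sets of 1 gene read the same RNA. None of the 10 was called, and 48.9% of all probe sets tested on MOE430A and 52.6% on MOE430B had values above 0. Notch3 on 1421964_at was level with replicate 2 (1513 against 1510.2). The further target genes did not share the sign of Hes1 as a set. Their value was above 0 for Hes6 (0.15) and below 0 for Nrarp (-0.38), Dtx1 (-0.55) and Heyl (-0.65).

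**Figure D4:**
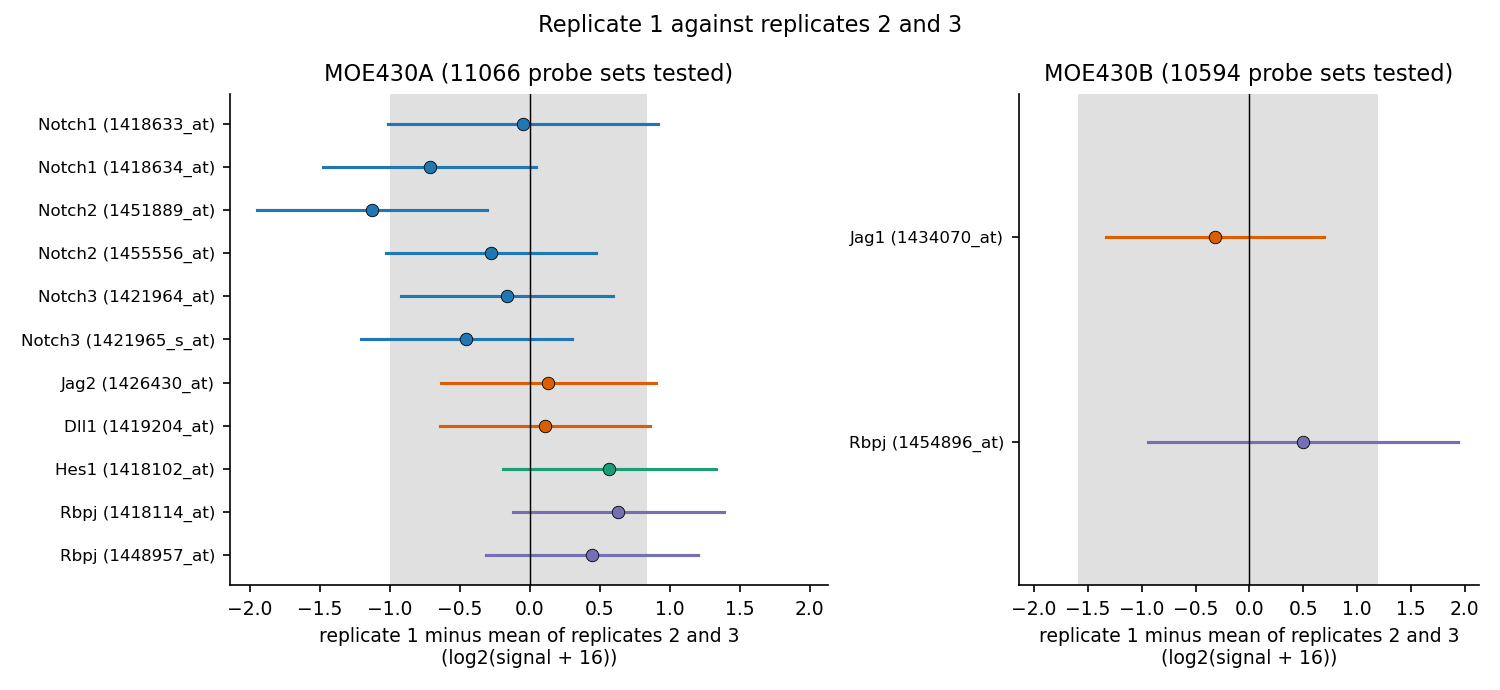
Difference of log2(signal + 16), replicate 1 minus the mean of replicates 2 and 3 (horizontal axis), for the 13 member probe sets tested, by array type. Points are limma's estimates, lines their 95% intervals, colours the roles, and the grey band holds the central 95% of all probe sets tested. Of the points, that of Notch2 on 1451889_at (-1.13), whose replicates 1 and 2 were under the floor, lies outside the band, and its interval and no other excludes 0.

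On MOE430A replicates 1 and 2 were scanned on the same day after the same fluidics station, and replicate 3 on another day after another. Within the shared day, replicate 1 minus replicate 2 was -0.53 for Notch1 on 1418634_at, 0.39 for Hes1, and 0.58 and 0.50 for Rbpj on 1448957_at and 1418114_at. Against replicate 3 the same values were -0.90, 0.75, 0.31 and 0.76. Notch1 on 1418633_at was lower in replicate 1 than in replicate 2 (-0.93), and its replicate 3 was under the floor. The MOE430B arrays shared a day, and replicate 1 was on another station than the other arrays, so there station and replicate cannot be told apart. Rbpj on MOE430B differed by 0.99 from replicate 2 and by 0.0096 from replicate 3, so its difference rested on replicate 2.

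Among the other pathway genes, 1 of 55 probe sets tested was called, beside 0.705% of all tested on MOE430A and 0% on MOE430B. Rfng, a Fringe glycosyltransferase that tunes which ligand a receptor answers to, had signals of 344, 1018 and 1316 on 1421160_a_at. It was called on limma's fitted log2 difference, replicate 1 minus the others, of -1.70. Replicate 1 was under its floor, so the size of that difference rests on a signal under the floor. With the floor put in place of that signal, replicate 1 was at least 1.66-fold lower, a bound that was not itself tested. Replicate 3 by itself gave a bound of 1.89-fold, and replicate 2 by itself gave 1.47-fold. The brighter Rfng probe set, 1460704_at, had 1615, 1831 and 2192 (limma adjusted p = 0.942), so the call rested on 1 probe set. It was lost with quantile normalization (limma adjusted p = 0.329) and with no filter on low values (limma adjusted p = 0.778). Dlk1 had 16263, 30716 and 27118 and did not pass (limma adjusted p = 0.524).

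Of the pericyte and smooth muscle markers, Acta2, Tagln, Cnn1, Cspg4, Pdgfrb and Rgs5 were tested. Myh11 and Mcam were left out by the filter on low values. Of those tested, Cnn1 alone was called, beside 0.705% of all probe sets tested on MOE430A. The contractile gene Cnn1 was higher in replicate 1 by a log2 difference of 1.89. It was 1.33 without replicate 3 and 2.44 without replicate 2, and the call was lost with quantile normalization (limma adjusted p = 0.468) and with no filter on low values (limma adjusted p = 0.882). Tagln (1.07) and Acta2 (0.70) had values of the same sign and Pdgfrb (-0.75 and -0.62 on its 2 probe sets), Cspg4 (-0.41) and Rgs5 (-0.19) of the other, and none of these passed. The summed signal of the 8 markers, most of it from Acta2 and Tagln, was 193383, 150871 and 88546 in replicates 1, 2 and 3, with no marker at 0. That of the 8 fibroblast markers was 623281, 690722 and 785214. The part of these in the members' differences was not tested.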

How the data were processed

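Per the labels, biotin-labelled total RNA of DR4 fibroblasts was run on 3 MOE430A and 3 MOE430B arrays. The deposited values are MAS5 signal intensities, 1 per probe set and array. The submitters' processing notes name MAS5, with its version and settings not given in the sources used here. Without the top and bottom 2% of values, the mean was 1499.8 on each MOE430A and 1499.7 or 1499.8 on each MOE430B array, so each was scaled to 1 target. Detection calls were not used here.

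After 64 control probe sets per type were left out, 22626 and 22511 remained. Names came from GEO's platform annotation, updated by gene identifier against RefSeq (20351 of 20380 and 14486 of 14661 with 1 symbol matched). The members and lists were chosen with earlier results of these data known. Named genes are all members, and per list up to 4 above the floor with the highest mean signal and any called. Cell type markers, and genes named as not above the floor, are outside that rule and serve as checks. A gene in a list is given by its brightest probe set, taken from MOE430A if it has one.

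limma 3.58.1 (R 4.3.3; lmFit, eBayes) ran within each type on log2(signal + 16), leaving out probe sets with a mean log2 signal at or under the mean log2 floor, with Benjamini-Hochberg adjustment over all of them and 1 residual degree of freedom. Fold changes on this scale understate those of dim genes. The script was tested on simulated data. Promoter counts used RefSeq windows without the 50 bases after the start. The number of arrays limits the precision.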

Additional observations from a re-analysis of the deposited data

How the results depend on the processing

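The count of members above the floor was 7 with the median and ranged from 7 to 8 when each replicate was left out in turn. It was 9 with a fixed signal of 200 (beside 79.7% of all genes) and 7 with probe sets marked unique (beside 50.8%). It was 6 with the highest tryptophan control (beside 44.0%) and 6 with each gene's brightest probe set alone (beside 49.9%), Jag1 being lost in both. With the 75th percentile as the floor it was 2 for the members and 16 for the other pathway genes, against 7 and 30, since fewer genes pass a higher floor by construction. The member probe sets called in replicate 1 stayed at 0 on both array types with every pseudocount, filter, normalization and eBayes alternative. Over all MOE430A probe sets, limma called 78, and 0 with no filter on low values, 0 with quantile normalization and 164 with an eBayes trend; the cause was not tested. The difference of Notch1 on 1418633_at changed sign with quantile normalization, from -0.05 to 0.0052, neither called. Differences from 1 array against 1 carry no test. No paired analysis was possible because replicate numbers are shared only between the 2 array types, which were not compared, and a scan-day term would leave no residual degree of freedom.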
